A study of Mus musculus with 6 samples.

Results

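The myeloid C-type lectin receptors described here are the products of 10 genes, *Clec4a1*, *Clec4a2*, *Clec4a3*, *Clec4d*, *Clec4e*, *Clec4n*, *Clec5a*, *Clec7a*, *Clec10a* and *Clec12a*. They were taken by symbol from a table of 55453 genes, and all 10 were found in it. The table holds RNA-Seq read counts from bone marrow-derived macrophages (BMDM), which are macrophages grown in culture from bone marrow, on a C57BL/6 background. The 3 libraries labelled PP2A KO came from *LysMcre PP2Ac fl/fl* mice, in which *cre* under the *Lyz2* (LysM) promoter removes exon 1 of *Ppp2ca* in myeloid cells. The other 3 libraries came from Wild Type (WT) mice, for which no *cre* or floxed allele is stated and which were obtained from another source, so that the deletion, the transgene and the origin of the mice cannot be told apart. The labels give no treatment and no age. The study describes RNA-Seq of BMDM given cGAMP, the cyclic dinucleotide that activates STING, so both groups were taken as treated with cGAMP, and no untreated library was analysed here.

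C-type lectin receptors are membrane proteins with a carbohydrate-recognition fold, through which macrophages, monocytes, neutrophils and dendritic cells bind glycans and lipids of microbes and of damaged host cells. Activating members signal through the kinase SYK. Some reach it through adaptors that carry an immunoreceptor tyrosine-based activation motif (ITAM), namely FcRγ (*Fcer1g*) or DAP12 (*Tyrobp*), and Dectin-1 through a motif in its own tail. SYK then acts through CARD9, BCL10 and MALT1 on NF-κB. Inhibitory members carry an inhibitory motif (ITIM), which recruits phosphatases such as SHP-1.

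Of the 10 genes, 9 lie on mouse chromosome 6 (GENCODE M21, GRCm38). The Dectin-2 cluster spans 368.0 kb and holds *Clec4a1* (forward strand, 122921848 to 122934619), *Clec4a3* (forward, 122952515 to 122969875), *Clec4a2* (forward, 123106428 to 123143999), *Clec4n* (forward, 123229843 to 123247021), *Clec4d* (forward, 123262111 to 123275265) and *Clec4e* (reverse, 123281789 to 123289870). The Dectin-1 cluster holds *Clec12a* (forward, 129342691 to 129365303) and *Clec7a* (reverse, 129461591 to 129472779). *Clec5a* lies apart (reverse, 40574894 to 40585821), and *Clec10a* is on chromosome 11 (forward, 70156197 to 70170834). No exon of these genes overlaps an exon of another annotated gene on either strand.

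RefSeq's promoter windows (GRCm38.p6, 250 bases before to 50 after a start) were matched for 8 of the 10 genes, all but *Clec4n* and *Clec10a*. Shown are the 250 bases before the start of *Clec4e*, the gene with the largest change, of its convergent neighbour *Clec4d*, which was not called, and of *Clec12a*, the other gene whose window held the C/EBP letters. Each is written along its gene's strand, and capitals mark the C/EBP letters TTGCNNAA and the AP-1 letters TGANTCA on either strand. The windows of *Clec12a* and *Clec4a2* lie wholly inside the GENCODE M21 spans of these genes, so their RefSeq starts are internal to the spans.
Clec4e (chr6:123289872-123290121, reverse strand): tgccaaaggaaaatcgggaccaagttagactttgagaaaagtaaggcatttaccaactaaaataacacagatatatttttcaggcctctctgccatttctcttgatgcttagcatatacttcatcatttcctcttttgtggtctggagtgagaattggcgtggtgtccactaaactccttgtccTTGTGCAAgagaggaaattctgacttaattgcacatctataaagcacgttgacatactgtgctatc
Clec4d (chr6:123261857-123262106, forward strand): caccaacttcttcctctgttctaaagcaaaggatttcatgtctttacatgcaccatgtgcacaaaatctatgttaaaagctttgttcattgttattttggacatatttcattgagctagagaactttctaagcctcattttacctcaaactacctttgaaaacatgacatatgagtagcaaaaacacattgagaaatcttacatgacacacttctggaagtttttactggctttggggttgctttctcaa
Clec12a (chr6:129349994-129350243, forward strand): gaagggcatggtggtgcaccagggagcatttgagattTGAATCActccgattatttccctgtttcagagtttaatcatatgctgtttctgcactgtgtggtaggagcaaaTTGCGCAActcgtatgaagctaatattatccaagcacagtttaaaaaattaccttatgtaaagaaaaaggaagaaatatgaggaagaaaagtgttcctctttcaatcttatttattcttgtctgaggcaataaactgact

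C/EBP letters stood at position -66 before the start of *Clec4e* (TTGTGCAA) and at -140 before that of *Clec12a* (TTGCGCAA), and in no window of the other 6 matched genes. Of the 27025 genes with full windows, 12.2% held them. AP-1 letters stood at -213 in *Clec12a* and within the 50 bases after the start in *Clec4a2*, and 8.97% of genes held them. The interferon-stimulated response element (ISRE) motif was found only at the start itself in *Clec4d* (3.99% of genes), and the PU.1 letters GAGGAAGT in none of the 8 (3.69%). A match of letters is a description of the window and not of binding.

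Library totals ran from 35257156 to 47390899 counts, and CPM (counts scaled to library size) were computed with TMM scaling. The TMM factors were 0.910 to 0.937 in PP2A KO and 1.05 to 1.10 in WT. This scaling set CPM of PP2A KO higher against WT than library totals alone would. *Ppp2ca*, which encodes the deleted catalytic subunit, had 33 to 47 counts per PP2A-KO library and 8279 to 10654 per WT library, as the labels say. The macrophage markers, of which 4 of 10 were higher, summed to 12225 to 12347 CPM in PP2A KO and 9887 to 10523 CPM in WT. The neutrophil markers summed to 0.805 to 1.17 CPM over all libraries, with *Ly6g* and *Retnlg* at 0 in each, and the dendritic cell markers to 4.74 to 6.11 CPM in PP2A KO and 3.77 to 4.61 CPM in WT, with *Xcr1* at 3 counts or fewer and 2 of 7 tested markers higher, *Clec9a* among them. The monocyte markers, of which 4 of 6 were higher, summed to 141.0 to 155.1 CPM in PP2A KO and 105.7 to 112.0 CPM in WT. The fibroblast markers, all 4 lower, summed to 22.7 to 33.4 and 74.9 to 117.7 CPM. The lymphoid markers, with *Cd8a* at 0 in every library, summed to 0.878 to 1.46 and 0.501 to 0.644 CPM. Of all genes tested, 18.1% were higher and 19.0% lower at an adjusted p under 0.05. The part of these other cells in the results was not tested, and in bulk RNA a change in the number of cells of a type and in the RNA per cell cannot be told apart.

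All 10 genes passed the filter on low counts, and 7 were higher in PP2A KO and 0 lower at an adjusted p under 0.05 (edgeR's quasi-likelihood test). Among all 13680 genes tested, 18.1% were called higher and 19.0% lower. With the replicate number as a block, 8 were higher and 0 lower, against 24.4% and 26.4% of all genes. The median log2 fold change was 0.59 for the receptors and -0.02 for all genes tested. In TMM-scaled CPM, every PP2A-KO library lay above every WT library in 8 of the 10 genes, which held for 24.0% of all genes. In 0 did every one lie below, which held for 26.8%. For *Clec4n* and *Clec7a* the groups overlapped as shares of library totals. At a log2 fold change over 1 and an adjusted p under 0.01, *Clec4e* and *Clec10a* were higher and none lower, 2 of 10 and 0 of 10 against 3.36% and 2.99% of all genes by edgeR, and with the block against 3.74% and 3.48%. Summed over the 10 genes, the libraries had 1239 to 1294 CPM in PP2A KO and 1001 to 1070 CPM in WT.

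**Figure D1:**
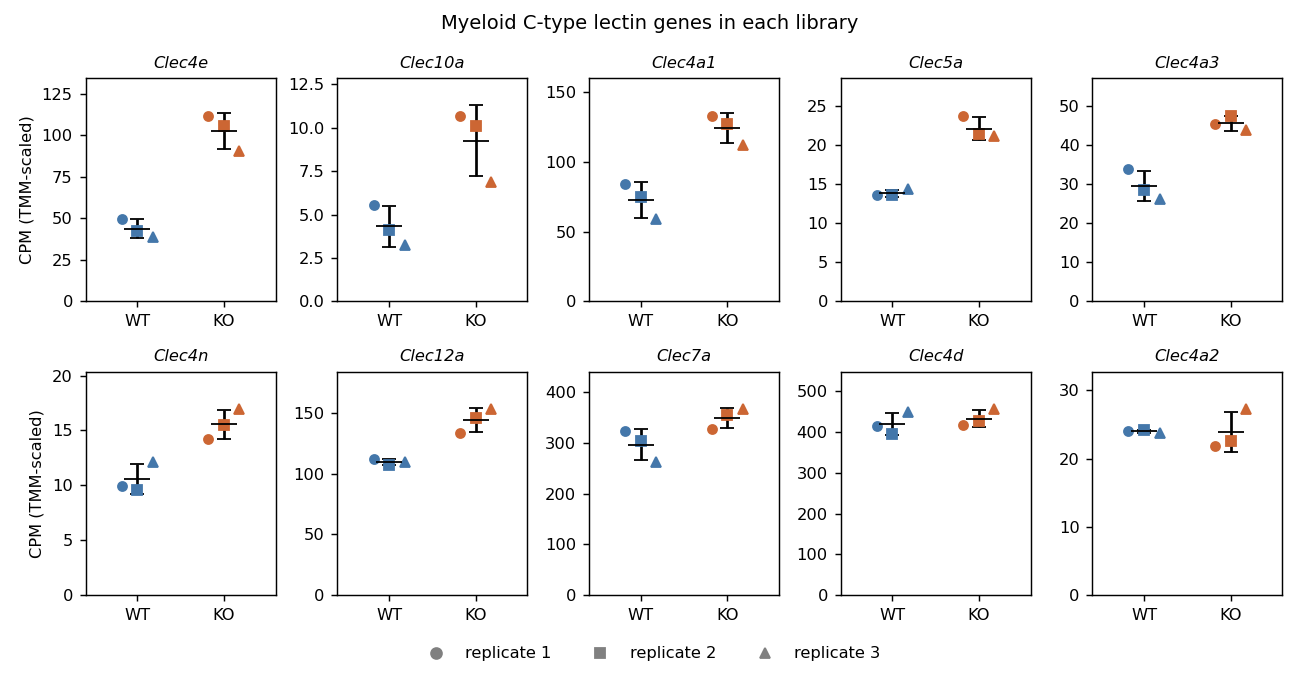
Each panel plots TMM-scaled CPM of one gene in the 3 WT and 3 PP2A-KO libraries, with symbols for the replicate number, and bars for the mean and SD (n = 3); each axis starts at 0. The groups are parted in all panels but those of *Clec4d* and *Clec4a2*.

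The activating receptors that pair with FcRγ include *Clec4e*, which encodes Mincle, a receptor for mycobacterial cord factor and for a ribonucleoprotein released by dying cells. *Clec4e* had 112, 106 and 90.8 CPM in the PP2A-KO libraries 1, 2 and 3 and 49.8, 42.5 and 38.9 CPM in the WT libraries. The lowest PP2A-KO library was well above the highest WT library. Its means were 102.8 ± 10.9 and 43.7 ± 5.58 CPM (SD, n = 3). This was 2.35-fold, or 1.23 in log2 units with an SE of 0.11 (edgeR adjusted p = 8.21e-05), the largest change among the receptors.

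*Clec4d* encodes MCL (Dectin-3), which associates with Mincle and raises its amount at the cell surface. *Clec4d* had 417, 428 and 456 CPM in the PP2A-KO libraries and 414, 395 and 450 CPM in the WT libraries. The groups overlapped almost fully. The log2 fold change was 0.05 (95% interval -0.12 to 0.21, edgeR adjusted p = 0.663), so a difference of the size seen in *Clec4e* lies outside the interval. The 3′ ends of these genes are 6.52 kb apart and face each other, and their transcripts share none of their windows of 50 bases with another gene. Within each library, which needs no scaling, there were 3.72, 4.05 and 5.02 reads on *Clec4d* for each read on *Clec4e* in PP2A KO, and 8.31, 9.31 and 11.6 in WT. The ratio was lower in every PP2A-KO library than in any WT library.

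*Clec4n* encodes Dectin-2, a receptor for fungal mannans that also uses FcRγ. It had 14.3, 15.5 and 16.9 CPM in PP2A KO and 9.98, 9.59 and 12.2 CPM in WT. The TMM-scaled groups did not overlap, although WT library 3 came within a few CPM of the lowest PP2A-KO library. As a share of library totals, PP2A-KO library 1 (605 reads of 46647682) lay below WT library 3 (510 of 38235133). On the log2 scale it rose by 0.56 with an SE of 0.11 (edgeR adjusted p = 0.00330).

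*Clec5a* encodes MDL-1, which pairs with DAP12 and binds dengue virus. It had 23.7, 21.4 and 21.1 CPM in PP2A KO and 13.6, 13.6 and 14.3 CPM in WT. The WT libraries differed from each other by less than 1 CPM, and all lay below the PP2A-KO libraries. Its rise was 0.68 in log2 units with an SE of 0.07 (edgeR adjusted p = 1.97e-04).

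*Clec7a* encodes Dectin-1, the receptor for β-glucans of fungal walls, and is annotated as a polymorphic pseudogene in GENCODE M21. It had 328, 356 and 366 CPM in PP2A KO and 323, 303 and 263 CPM in WT. PP2A-KO library 1 and WT library 1 were within 6 CPM of each other, and the TMM-scaled groups did not overlap. As a share of library totals, PP2A-KO library 1 (13909 reads of 46647682) lay below WT library 1 (16035 of 47390899). Its difference of 0.24 in log2 units, with an SE of 0.09, missed the threshold (edgeR adjusted p = 0.0575). Blocked by replicate number it was 0.24 and passed (edgeR adjusted p = 0.0140). It also passed with WT library 1 left out, at 0.31 (edgeR adjusted p = 0.0153). In all it passed in 5 of the 13 alternative settings and not in the other 8. It had 0.18 under upper-quartile scaling and 0.16 with WT library 3 left out (edgeR adjusted p = 0.120 and 0.167).

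Of the DCIR genes, *Clec4a2* encodes DCIR1, which carries an ITIM, whereas *Clec4a1* (DCIR4) and *Clec4a3* (DCIR3) encode relatives without one. *Clec4a2* had 21.9, 22.6 and 27.2 CPM in PP2A KO and 24.0, 24.2 and 23.8 CPM in WT. The WT libraries lay between PP2A-KO libraries 2 and 3. The log2 fold change was -0.004 (95% interval -0.20 to 0.19, edgeR adjusted p = 0.975), and its sign was positive under RLE scaling and in DESeq2. Of its windows of 50 bases, 6.69% also occur in other transcripts, most often in those of *Clec4a4* and *Clec4b1*, so that reads could have been divided between these genes.

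*Clec4a1* had 133, 127 and 112 CPM in PP2A KO and 84.1, 75.0 and 59.2 CPM in WT. In both genotypes the library numbered 1 was the highest and that numbered 3 the lowest, and the groups did not overlap. PP2A KO exceeded WT by 0.77 on the log2 scale with an SE of 0.12 (edgeR adjusted p = 0.00120). *Clec4a3* had 45.2, 47.5 and 43.8 CPM in PP2A KO and 33.8, 28.4 and 26.2 CPM in WT, and its groups did not overlap either. On the log2 scale it rose by 0.63 with an SE of 0.09 (edgeR adjusted p = 8.36e-04). There were 6.08, 5.62 and 4.12 reads on *Clec4a1* for each read on *Clec4a2* in PP2A KO, and 3.50, 3.10 and 2.49 in WT. Neither *Clec4a1* nor *Clec4a3* shares a window of 50 bases with another gene.

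*Clec12a* encodes MICL, an ITIM-bearing receptor that binds uric acid crystals. It had 134, 146 and 153 CPM in PP2A KO and 113, 108 and 110 CPM in WT. The WT libraries lay close together, below all PP2A-KO libraries. As a share of library totals, PP2A-KO library 1 (5665 reads of 46647682) lay only just above WT library 3 (4597 of 38235133). With TMM scaling the rise of *Clec12a* was 0.39 in log2 units with an SE of 0.07 (edgeR adjusted p = 0.00196), the smallest of the 7 that passed.

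*Clec10a* encodes MGL1 (CD301a), a macrophage galactose-type lectin. It had 10.7, 10.1 and 6.90 CPM in PP2A KO and 5.58, 4.12 and 3.27 CPM in WT, from 288 to 454 and 137 to 277 reads. The groups did not overlap, although PP2A-KO library 3 was nearer to WT library 1 than to the other PP2A-KO libraries. PP2A KO exceeded WT by 1.09 on the log2 scale with an SE of 0.21 (edgeR adjusted p = 0.00359), with the widest interval of the receptors, 0.61 to 1.57. Of its windows of 50 bases, 9.02% occur in other transcripts, most of them in its neighbour *Mgl2*, the gene of the paralog MGL2. *Mgl2* had 2.41 ± 0.675 and 1.62 ± 0.242 CPM (SD, n = 3) and a log2 fold change of 0.58 (edgeR adjusted p = 0.0657, and 0.0127 with the replicate block), so *Clec10a* had more reads than *Mgl2* in both genotypes. The dendritic cell markers, of which 2 of 7 tested were higher and 5 were not called, summed to 4.74 to 6.11 CPM in PP2A KO and 3.77 to 4.61 CPM in WT, and their part in the *Clec10a* result was not tested.

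**Figure D2:**
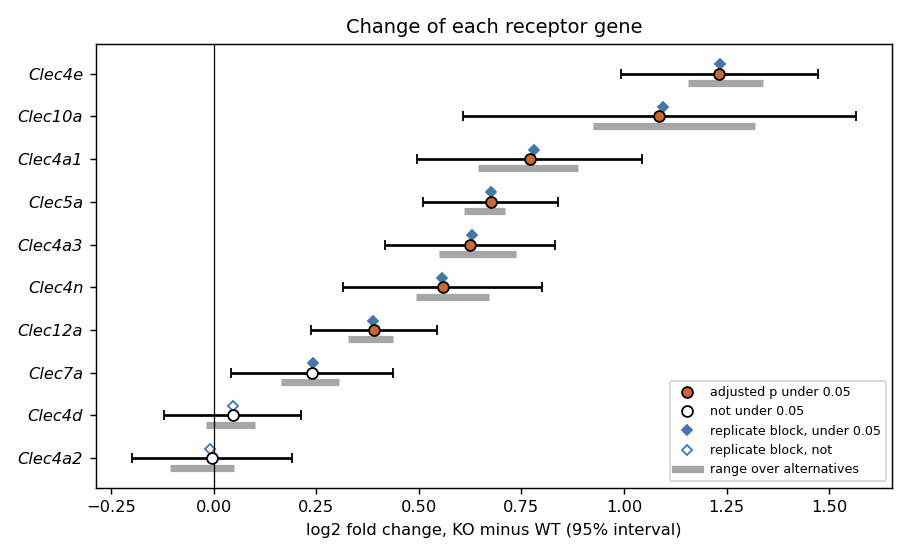
Circles plot the log2 fold change of each gene (PP2A KO minus WT, n = 3 per group) with its 95% interval, diamonds the fit with the replicate block, and grey bars the range over all alternatives. The 7 filled circles are the genes called higher, from 0.39 to 1.23, and *Clec7a* is filled only with the block.

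The groups by signaling type overlapped in size. Of the 5 activating receptors, *Clec4e*, *Clec4n* and *Clec5a* rose, and *Clec4d* and *Clec7a* were not called. Of the 2 with an ITIM, *Clec12a* rose and *Clec4a2* was not called. *Clec4a1*, *Clec4a3* and *Clec10a*, which are in neither group, all rose. Of all genes tested, 18.1% were called higher and 19.0% lower. A difference between the groups by signaling type was not tested.

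Levels of different genes were compared as CPM per kb of exon, with the exons of all transcripts merged. In WT, *Clec4d* was the highest at 263 ± 17.4 CPM per kb (SD, n = 3), followed by *Clec7a* at 112 ± 11.5, *Clec4a1* at 46.7 ± 8.10, *Clec4a3* at 22.2 ± 2.94 and *Clec12a* at 19.9 ± 0.449 CPM per kb. Below them stood *Clec4e* at 8.81 ± 1.12, *Clec4a2* at 8.21 ± 0.0737, *Clec4n* at 7.45 ± 0.977, *Clec5a* at 3.60 ± 0.114 and *Clec10a* at 1.49 ± 0.403 CPM per kb. In 3 places neighbours in this order overlapped between libraries, which were *Clec4a3* with *Clec12a*, *Clec4e* with *Clec4a2* and *Clec4a2* with *Clec4n*. In PP2A KO no neighbours overlapped. There *Clec4e*, at 20.7 ± 2.19 CPM per kb, stood clear of *Clec4n* at 11.0 ± 0.936 and *Clec4a2* at 8.18 ± 0.984, which had changed places.

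The order rests on the length used, which for *Clec7a* was 2.64 kb of merged exons or 707 bases of the principal transcript. Per kb of the principal transcript alone, a length chosen after the data were seen, *Clec7a* was the highest in WT at 419 ± 42.8 CPM per kb and *Clec4d* the next at 317 ± 21.1, and *Clec12a* stood above *Clec4a3*. *Clec4e* then had 17.4 ± 2.21 CPM per kb in WT and 40.8 ± 4.31 in PP2A KO (SD, n = 3). *Clec10a* was the lowest with either length. Among 13582 genes with a merged exon length, the receptors' WT levels per kb ran from percentile 32.6 for *Clec10a* to 99.1 for *Clec4d*.

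**Figure D3:**
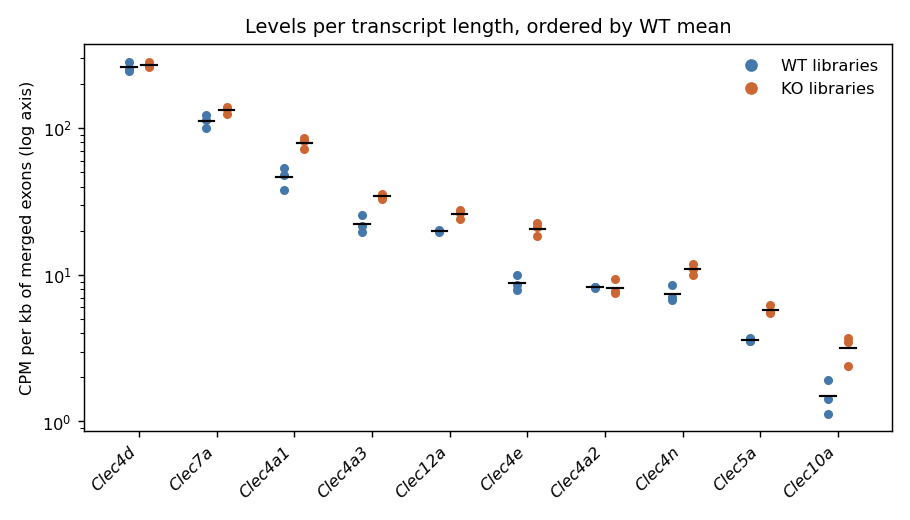
Points are CPM per kb of merged exons in each WT and PP2A-KO library on a log axis, with bars for group means (n = 3), ordered by WT mean. The genes run from 263 (*Clec4d*) to 1.49 CPM per kb (*Clec10a*) in WT, and the groups part most at *Clec4e* and *Clec10a*.

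Within the Dectin-2 cluster, 4 of the 6 receptor genes were called higher, against 18.1% of all genes tested. The other 3 protein-coding genes in it were low, and of these only *Clec4b1*, a further DCIR-like gene, was tested, with at most 90 reads in any library and a log2 difference of 0.61 (edgeR adjusted p = 0.149). The called genes were not in one stretch, since *Clec4a2* lies between *Clec4a3* and *Clec4n*, and *Clec4d* between *Clec4n* and *Clec4e*. Within 250 kb of the cluster 3 other protein-coding genes were called, 1 was tested and not called, and 4 were not tested. Of all genes tested, 18.1% were called higher and 19.0% lower. Neighbours were named after their values were seen. *C3ar1*, the receptor for complement C3a, and *Necap1*, an endocytosis factor, were higher, with log2 fold changes of 0.36 and 0.27 (edgeR adjusted p = 0.00651 and 0.00713). The glucose transporter gene *Slc2a3* was lower, at -0.44 (edgeR adjusted p = 0.00616).

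In the Dectin-1 cluster, taken as the 164.5 kb from *Clec12a* to *Olr1*, the other lectin genes had at most 99 reads per library, against 4597 to 16035 for *Clec12a* and *Clec7a*. Of these only *Clec9a*, which encodes the dendritic cell receptor DNGR-1, was called, with 0.936 ± 0.300 and 0.388 ± 0.196 CPM (SD, n = 3) and a log2 fold change of 1.25 (edgeR adjusted p = 0.0284). Larger changes than in the receptors stood beside the cluster. *Cd69*, which encodes an early activation lectin of leukocytes, rose by a log2 fold change of 2.07 (edgeR adjusted p = 1.26e-04), and *Klrk1*, which encodes the activating receptor NKG2D, by 1.86 (edgeR adjusted p = 0.00165). The lectin gene *Clec2d* rose by 0.41 and *Gabarapl1*, an autophagy gene, fell by 0.53 (edgeR adjusted p = 9.78e-04 and 3.34e-04). The other 10 protein-coding genes within 250 kb of the cluster were not tested.

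**Figure D4:**
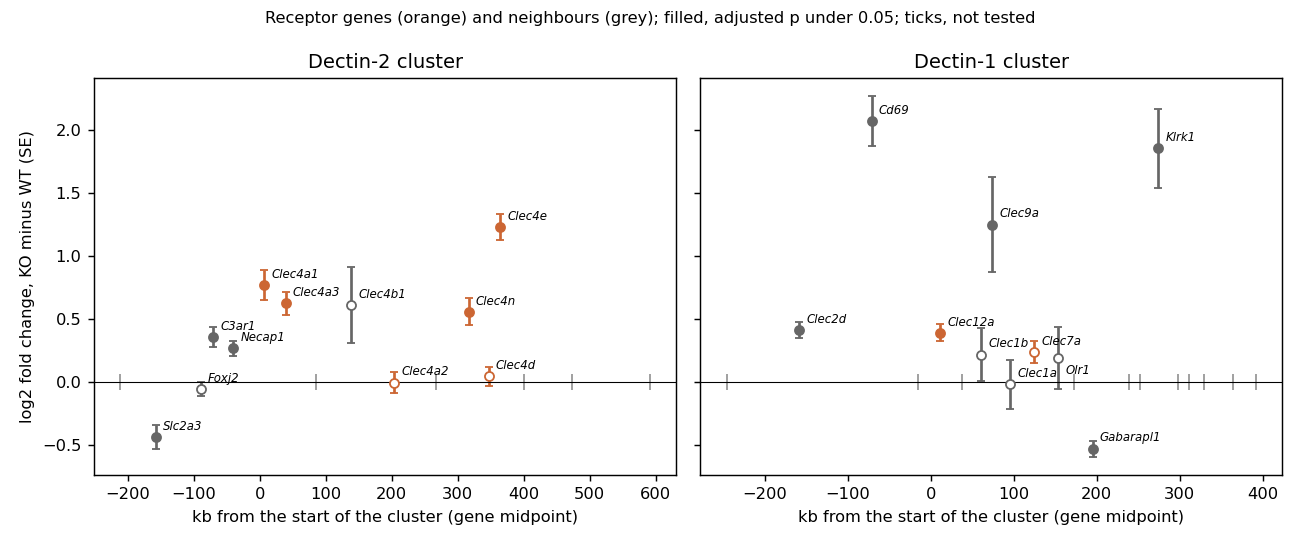
Points are log2 fold changes (bars, SE) of protein-coding genes by distance in kb from the start of the Dectin-2 and the Dectin-1 cluster, with receptors in orange and neighbours in grey. Filled points had an adjusted p under 0.05, and *Clec4a2* and *Clec4d*, near 0, stand among higher neighbours.

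Other C-type lectins were taken from a list of 53 genes, of which 23 were tested. Of these, 6 were higher and 4 lower, against 18.1% and 19.0% of all genes tested. The median log2 difference was 0.09. The largest increases were in *Pla2r1*, a relative of the mannose receptor, at 2.13 from no more than 61 reads (edgeR adjusted p = 3.00e-04), and in *Cd69*, *Klrk1* and *Clec9a*. *Mrc2*, the collagen-uptake receptor Endo180, fell by 1.76 on the log2 scale (edgeR adjusted p = 3.35e-04), beside the fall of the fibroblast markers given above. *Thbd*, *Cd207* and *Cd93* fell by 0.60, 0.58 and 0.27 (edgeR adjusted p = 7.30e-04, 0.0193 and 0.0144). *Mrc1*, the macrophage mannose receptor, named after its values were seen, had 162 ± 18.8 and 172 ± 29.2 CPM (SD, n = 3) and was not called (edgeR adjusted p = 0.629).

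Of the adaptors, *Fcer1g* rose from 596 ± 22.4 to 767 ± 24.0 CPM (SD, n = 3), which is a log2 difference of 0.36 (edgeR adjusted p = 0.00242). *Tyrobp* and *Hcst*, which encodes DAP10, had log2 fold changes of 0.15 and 0.26 (edgeR adjusted p = 0.160 and 0.115), and passed with the replicate block (edgeR adjusted p = 0.00940 and 0.0196). The calls thus went from 1 to 3 of 3 with the block, and those of all genes from 18.1% to 24.4% higher.

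SRC-family kinases phosphorylate the tyrosines of ITAM and ITIM. *Lyn* rose from 439 ± 94.8 to 922 ± 62.0 CPM (SD, n = 3), which is a log2 difference of 1.07 (edgeR adjusted p = 4.36e-04). *Src* rose by 0.60 on the log2 scale (edgeR adjusted p = 0.00294). *Fgr* and *Fyn* had 0.25 and 0.21 (edgeR adjusted p = 0.112 and 0.246), and passed with the replicate block (edgeR adjusted p = 0.0410 and 0.00183). Of the phosphatases that bind ITIM, *Ptpn6* (SHP-1) rose by 0.35 (edgeR adjusted p = 0.00652), whereas *Ptpn11* (SHP-2) and *Inpp5d* (SHIP1) had -0.02 and -0.06 (edgeR adjusted p = 0.772 and 0.503).

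On the list of 22 genes of the SYK-CARD9 route, all tested, 11 were higher and 2 lower, against 18.1% and 19.0% of all genes. The median log2 difference was 0.24. The largest increases were in *Lcp2*, which encodes the adaptor SLP-76, in the deubiquitinase gene *Usp15* and in the transcription factor gene *Irf5*, at 0.80, 0.76 and 0.74 (edgeR adjusted p = 1.22e-04, 0.00114 and 9.29e-05). *Vav2* and *Nfatc2* fell by 0.73 and 0.45 (edgeR adjusted p = 1.42e-04 and 0.00459). *Syk* and *Card9* themselves, named after their values were seen, had log2 fold changes of -0.19 and -0.26 (edgeR adjusted p = 0.0537 and 0.0652). Both passed with the block (edgeR adjusted p = 0.00226 and 0.0162), which raised the lower genes from 2 to 4, as did upper-quartile scaling. With the block, 26.4% of all genes were lower.

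Of 19 genes that these receptors are known to induce through SYK, 15 were tested. Of these, 10 were higher and 0 lower, against 18.1% and 19.0% of all genes, and the median log2 difference was 1.18. *Nos2*, *Cxcl2* and *Il10* had the largest increases, at 3.08, 1.76 and 1.73 (edgeR adjusted p = 1.37e-04, 9.29e-05 and 3.10e-04). *Egr2* and *Mmp9* had -0.56 and -0.72 (edgeR adjusted p = 0.0519 and 0.156) and were called lower with the block (edgeR adjusted p = 0.0208 and 0.0414). The number of target genes called lower was 1 or 2 in 5 of the 13 alternatives, the block among them. The same genes respond to other receptors, and no ligand of a C-type lectin is named for these cultures. This list, like the receptors and the other lists, was chosen with earlier results of these data known. Its share of called genes is therefore not independent of the data.

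**Figure D5:**
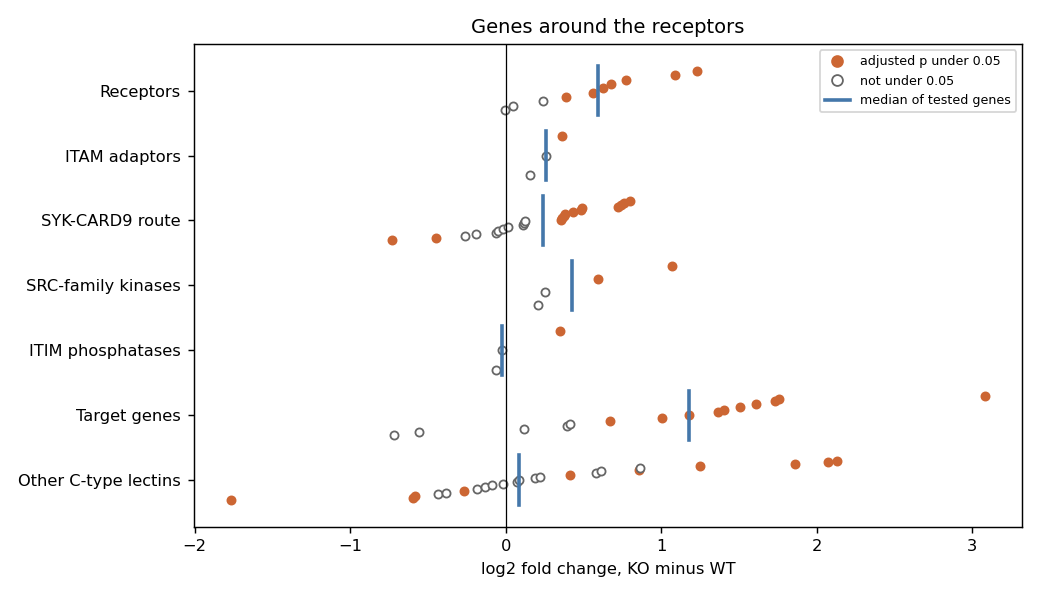
Points are log2 fold changes (PP2A KO minus WT) of tested genes on each list, filled where the adjusted p was under 0.05, and blue lines are list medians. The medians are 0.59 for the receptors, 1.18 for the target genes and 0.09 for other C-type lectins.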

How the data were processed

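The authors deposited 1 table of read counts per gene on mm10 (GRCm38), without normalization. The submitters' processing notes name fastp 0.20.0, kallisto 0.46.1, STAR 2.7.1a, HTSeq 0.11.2, edgeR 3.34.0 and limma 3.48.3, with no role or order. The annotation release and strand setting are not given in the sources used here. Libraries were poly(A)-selected and strand-specific, and columns were matched to samples by name.

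Genotypes were compared on these counts by edgeR 4.0.16 under R 4.3.3 (TMM, glmQLFit and glmQLFTest), after filterByExpr (count minimum 10, total minimum 15), with Benjamini-Hochberg adjustment over 13680 genes. Standard errors were taken from the F statistics. The settings varied were the scaling (RLE, upper-quartile), the filter (none, or 10 counts in each library), a replicate block, DESeq2 1.42.0, limma-voom (limma 3.58.1) and each library left out. Scaling by library totals alone was not among them.

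Nothing in the labels says that libraries came from separate mice, so p-values measure the spread between these libraries, which may be technical. An exact permutation test of 3 against 3 cannot go below 0.1. Pairs of libraries within a genotype differed by 9.32 to 45.5 times counting noise (chi-square per degree of freedom), so none was taken as a duplicate. Deviations from the group means of libraries with the same replicate number in the labels correlated across genes at 0.289, 0.148 and 0.337. Those with different numbers correlated at -0.258 to -0.0312. Deviations within a genotype cancel out for each gene, so these negative values follow in part from the positive ones and are no separate support. The numbers were taken as pairing the libraries because each library correlated most with that of the same number. The main fit nevertheless holds genotype alone, and calls are from it unless the block is named.

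The members and lists were chosen with earlier results of these data known, and the lists were written by hand. Named are all members, *Ppp2ca*, the 4 other lectins called with the largest change in each direction, the 3 such genes of the longer pathway lists and the genes of the shorter ones. After the values were known, 1 further gene was taken off a shorter list, and it is not reported here. Neighbours, *Mrc1*, *Syk*, *Card9*, *Egr2* and *Mmp9* were named after their values were seen. Of the table's symbols, 98.3% occur in GENCODE M21.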

Additional observations from a re-analysis of the deposited data

How the results depend on the processing

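Of the receptors, the 7 genes called higher were called in the same direction under all 13 alternatives, and 0 were called lower. No alternative scaled by library totals alone. The number called was 7 or 8, since *Clec7a* also passed under RLE scaling (log2 fold change 0.26, adjusted p = 0.0419 from edgeR), without a filter (0.23, adjusted p = 0.0307 from edgeR), with the replicate block, in DESeq2 (0.26, adjusted p = 0.0207) and without WT replicate 1. The sign of *Clec4a2* changed under RLE scaling (0.017) and in DESeq2 (0.017), with a range of -0.11 to 0.050 when each library was left out, and that of *Clec4d* under upper-quartile scaling (-0.018). The cause was not tested. Over all genes, the median log2 fold change moved from -0.02 to -0.09 under upper-quartile scaling. With the replicate block, 3343 genes were higher and 3615 lower, against 2470 and 2604 without it, and 8 receptors were higher. With each library left out, 1974 to 2721 genes were higher and 1873 to 2720 lower. The block changed no call of a receptor other than *Clec7a*. With 3 counts equal to 0.0604 to 0.0908 CPM per library, no receptor was near the limit of detection. This floor covers counting error only.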
